A study of Rattus norvegicus with 6 samples.

Results

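The kidney clears hippurate and many other organic anions through carriers of the proximal tubule, and 10 genes of this system were examined in rat renal cortex. They are Slc22a6, Slc22a8, Slco4c1 and Slc13a3 of the basolateral side, Abcc2, Abcc4, Slc17a1 and Slc22a12 of the apical side, and Slc22a7 and Slc22a25, whose side was not set here. The genes were given by name and found by matching each probe's accession to a rat gene symbol. All 10 were found, on 18 probes, of which 17 were bright enough to test, and they are 10 of 31179 genes tested. Slc22a7 and Slco4c1 were the members that varied most between animals in the main processing. No member differed between treated and vehicle rats past the test's threshold.

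The array data came from 6 male Sprague-Dawley (Crl:CD(SD)) rats, 5 weeks old at purchase, with 1 array per animal. The benzyl acetate group (n = 3) was given 1000 mg/kg/day of benzyl acetate over 4 weeks, and the vehicle group (n = 3) was given corn oil over the same 4 weeks. All animals were of 1 strain on the same basal diet, and neither group carried a genetic change. Cortex is a mixed tissue, so each value is an average over the tubule segments, glomeruli, vessels and other cells in the piece taken.

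Organic anion secretion is a journey through the proximal tubule cell. Carriers on the basolateral membrane exchange a blood-borne anion for a dicarboxylate such as alpha-ketoglutarate, a sodium-coupled carrier returns the dicarboxylate to the cell, and the sodium pump sustains the gradient. Efflux pumps and exchangers of the brush border then pass the anion into the urine. Benzyl acetate, a flavour and fragrance ester, bears on this route because it is hydrolysed and oxidised to benzoic acid, which is excreted largely as hippuric acid, and hippurate is a known substrate of the basolateral carrier encoded by Slc22a6.

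RefSeq promoter windows in the GRCr8 assembly, from 250 bases before to 50 bases after the annotated start, were held for 9 of the 10 genes (all but Slc22a6). The windows of Slc22a7 and Slco4c1 are shown because these genes shared a pattern across animals. No part of them is marked.
Slc22a7, chr9:22045248-22045547, plus strand: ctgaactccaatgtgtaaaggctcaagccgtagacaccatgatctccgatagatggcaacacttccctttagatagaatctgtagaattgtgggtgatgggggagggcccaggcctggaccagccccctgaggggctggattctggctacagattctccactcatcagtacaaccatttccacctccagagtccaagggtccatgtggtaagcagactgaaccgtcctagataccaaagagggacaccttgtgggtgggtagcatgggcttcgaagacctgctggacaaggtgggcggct
Slco4c1, chr9:104676413-104676712, minus strand: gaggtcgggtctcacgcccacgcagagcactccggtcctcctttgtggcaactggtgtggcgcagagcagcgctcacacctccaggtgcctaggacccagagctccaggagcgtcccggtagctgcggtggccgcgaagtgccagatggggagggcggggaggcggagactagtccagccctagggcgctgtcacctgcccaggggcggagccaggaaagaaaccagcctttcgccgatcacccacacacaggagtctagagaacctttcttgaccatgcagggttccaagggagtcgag

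Each value below is log2 of a probe's signal minus log2 of the 75th percentile of its array, called log2 signal, so 0 is the brightness of the probe at that percentile. Between 69.0% and 69.8% of probes were well above background on the benzyl acetate arrays and between 70.5% and 72.0% on the vehicle arrays. The 75th percentile signal ran from 883 to 990 on benzyl acetate arrays and from 1003 to 1057 on vehicle arrays, so each array's own scale was removed before any comparison. All 14 proximal tubule markers were tested and their summed signal was 2340 to 2532 times the 75th percentile with benzyl acetate and 2317 to 2355 times with vehicle. Of the 14, 9 differed above 0 and 5 below, with a median of 0.052. Single markers ran from -0.62 for Slc7a13 to 0.55 for Gatm. Sums were taken on the linear scale, so the brightest genes of a list weigh most. Summed signals did not overlap between groups for 3 other lists, and single-gene groups did not overlap for 12.8% of all genes. Collecting duct markers (6 of 6 tested) summed to 138 to 177 with benzyl acetate and 189 to 204 with vehicle. Of these, 3 differed above 0 and 3 below, with Slc26a4 at -0.96 and Aqp2, the brightest, at -0.23. Endothelial markers (4 of 4) summed to 33.2 to 35.7 with benzyl acetate and 28.4 to 31.6 with vehicle. Kdr, the brightest of them, differed by 0.25. Pecam1, Cdh5 and Emcn differed by 0.033, 0.028 and 0.023, with overlapping groups. Distal convoluted tubule markers (2 of 4) summed to 21.5 to 24.6 with benzyl acetate and 24.8 to 28.3 with vehicle. Slc12a3 differed by -0.19 and Calb1 by -0.41. Sums overlapped for the thick ascending limb, podocyte, T cell, macrophage, fat and fibroblast lists. No single marker of any cell type passed the test, and the part of these sums in the carriers' values was not tested.

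No carrier passed the test between groups. Differences were tested with limma over all 31179 genes, with Benjamini-Hochberg adjustment and a threshold of 0.05. Among all genes 0% passed, and 6.74% (2100 genes) had an unadjusted p under 0.05, 3.82% in the higher direction. None of the 10 carriers passed the adjusted test or had an unadjusted p under 0.05 in this fit. The difference, benzyl acetate minus vehicle, was above 0 for 7 carriers and below 0 for 3, with a median of 0.068 over the carriers and 0.012 over all genes. In bulk cortex, fewer cells of a type and less RNA per cell cannot be told apart.

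**Figure D1:**
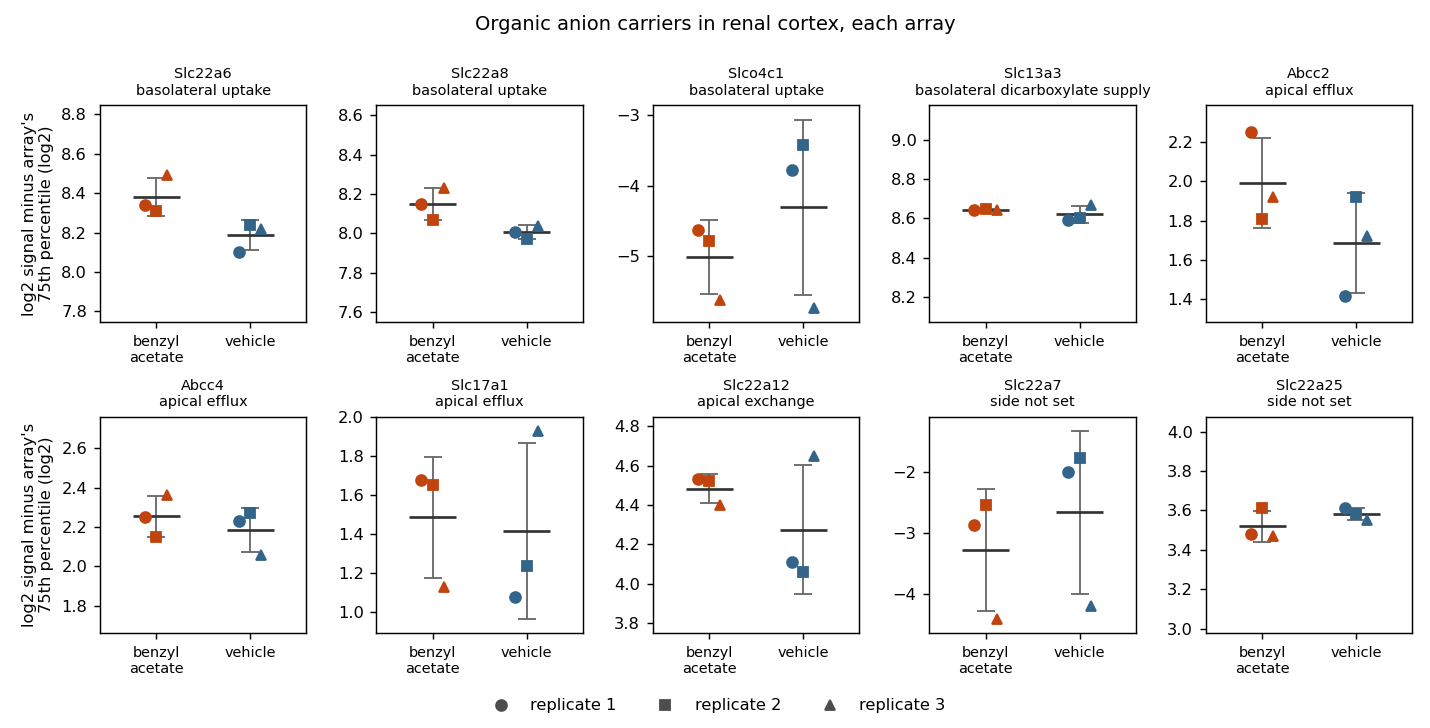
Log2 signal of each carrier (y axis, one scale per panel) for each array of the benzyl acetate and vehicle groups; symbols give the replicate number, the horizontal line the mean and the bars the SD (n = 3 per group). Only for Slc22a6 and Slc22a8 do all 3 benzyl acetate points lie above all 3 vehicle points.

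Slc22a6 encodes OAT1, the classical p-aminohippurate carrier of the basolateral membrane. Its log2 signal was 8.34, 8.31 and 8.49 with benzyl acetate, against 8.10, 8.24 and 8.22 with vehicle. Every treated animal lay above every vehicle animal. The difference was 0.19 log2 (95% interval -0.0048 to 0.39, 1.14-fold; adjusted p = 0.736 in limma). The dimmer probe of Slc22a6 read 4.23, 4.33 and 4.49 with benzyl acetate, against 4.41, 4.18 and 4.23 with vehicle. On that probe the groups overlapped, and its difference was 0.079.

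Slc22a8 encodes OAT3, a basolateral carrier of broader substrate range. Animals read 8.15, 8.07 and 8.23 with benzyl acetate, against 8.01, 7.97 and 8.04 with vehicle. The groups again did not overlap, and the gap between the closest animals was smaller than for Slc22a6. The difference was 0.14 (95% interval -0.026 to 0.32; adjusted p = 0.762 in limma), and the dimmer probe gave 0.13 with overlapping groups. Slc22a6 and Slc22a8 were the 2 of 10 members with separate groups, both in the higher direction. Under the trended robust prior the intervals of both lay above 0, at 0.042 to 0.35 for Slc22a6 and 0.022 to 0.27 for Slc22a8 (adjusted p = 0.757 each in limma), and 6.54% of all genes had an unadjusted p under 0.05 in that fit. With cyclic loess the interval of Slc22a6 was 0.0026 to 0.32 (adjusted p = 0.723), beside 6.88% of all genes. Over all genes, 12.8% had groups that did not overlap, 7.51% in the higher and 5.31% in the lower direction.

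Slc13a3 encodes NaDC3, the sodium-coupled carrier that returns dicarboxylates across the basolateral membrane. It was the steadiest member, with 8.64, 8.65 and 8.64 with benzyl acetate and 8.59, 8.60 and 8.67 with vehicle. All 6 animals lay within 1.06-fold of each other. Its difference was 0.026, with an interval of -0.12 to 0.18 (adjusted p = 0.958 in limma). The median scaling, quantile normalization and cyclic loess alternatives turned this value below 0, to between -0.030 and -0.0028.

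Slco4c1 encodes the basolateral polypeptide carrier that takes up cardiac glycosides, thyroid hormones and uremic anions. Its log2 signal was -4.63, -4.79 and -5.62 with benzyl acetate, against -3.77, -3.42 and -5.74 with vehicle. Replicate 3 was the lowest animal in each group, and the widest gap was between vehicle animals. The difference was -0.70, with an interval from -2.29 to 0.88 (adjusted p = 0.860 in limma). Without vehicle replicate 3 the difference was -1.42 (-2.27 to -0.56; adjusted p = 0.493), in a fit where 7.53% of all genes had an unadjusted p under 0.05. Leaving out vehicle replicate 2 instead gave -0.26. This was a dim probe, though well above background on all 6 arrays. The dimmer of the gene's probes was well above background on 3 of 6 arrays and was not tested. It read -4.93, -7.18 and -7.33 with benzyl acetate, against -5.17, -4.95 and -8.13 with vehicle. Replicate 3 was lowest in each group there too, but benzyl acetate replicate 1 was the highest animal.

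Abcc2 encodes MRP2, an ATP-driven pump of the brush border for conjugated anions. Its log2 signal was 2.25, 1.81 and 1.92 with benzyl acetate, against 1.42, 1.92 and 1.72 with vehicle. The highest animal was treated and the lowest was a vehicle animal, but the rest interleaved. The difference was 0.31, the farthest above 0 among the carriers, and its interval ran from -0.11 to 0.73 (adjusted p = 0.787 in limma).

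Abcc4 encodes MRP4, the brush border pump for which urate, cyclic nucleotides and p-aminohippurate are known substrates. Its brightest probe read 2.25, 2.15 and 2.36 with benzyl acetate, against 2.23, 2.27 and 2.06 with vehicle. The groups overlapped. The difference was 0.065 (95% interval -0.16 to 0.29; adjusted p = 0.919 in limma). All 4 probes of Abcc4 gave differences above 0, from 0.011 to 0.065, each with an interval that held 0. Without vehicle replicate 3 the brightest probe's difference was 0.0013, and without benzyl acetate replicate 2 it was 0.12. Without replicate 3 of both groups the brightest probe's difference was -0.051.

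Slc17a1 encodes NPT1, an apical voltage-driven exit route for urate and other anions. Its log2 signal was 1.68, 1.65 and 1.13 with benzyl acetate, against 1.08, 1.24 and 1.93 with vehicle. Benzyl acetate replicate 3 lay below its group and vehicle replicate 3 above its own, and the groups overlapped over their full ranges. The difference was 0.071 (95% interval -0.58 to 0.72; adjusted p = 0.979 in limma). Without vehicle replicate 1 it was -0.098, without benzyl acetate replicate 1 it was -0.028, and without vehicle replicate 3 it was 0.33.

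Slc22a12 encodes URAT1, which exchanges luminal urate for intracellular organic anions and so runs toward reabsorption. Log2 signals of Slc22a12 were 4.53, 4.52 and 4.40 with benzyl acetate, against 4.11, 4.06 and 4.65 with vehicle. Vehicle replicate 3 was the highest of the 6 animals and the other vehicle animals the lowest. All 3 probes of the gene gave that order, with differences of 0.21, 0.24 and 0.19. The brightest probe's interval was -0.21 to 0.63 (adjusted p = 0.843 in limma). Without vehicle replicate 3 the difference was 0.40, and its interval of 0.19 to 0.61 lay above 0, with an adjusted p of 0.493 in limma, where 7.53% of all genes had an unadjusted p under 0.05.

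Slc22a7 encodes OAT2, a carrier of cyclic nucleotides and prostaglandins. Its log2 signal was -2.86, -2.54 and -4.42 with benzyl acetate, against -2.00, -1.77 and -4.20 with vehicle. Replicate 3 was again the lowest animal in each group, and the 6 animals spanned 6.28-fold. The difference was -0.62 (95% interval -2.57 to 1.33; adjusted p = 0.905 in limma). Leaving out vehicle replicate 3 gave -1.39, and leaving out benzyl acetate replicate 3 gave -0.047.

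Slc22a25 belongs to a rodent-expanded branch of the organic anion carrier family. Log2 signals of this gene were 3.48, 3.61 and 3.47 with benzyl acetate, against 3.61, 3.58 and 3.55 with vehicle. The groups overlapped, and all 6 animals lay within 1.10-fold of each other. The difference was -0.058 (95% interval -0.23 to 0.11; adjusted p = 0.899 in limma). In the GRCr8 annotation Slc22a25, Slc22a8 and Slc22a6 are consecutive coding genes on chromosome 1, and the annotated span of Slc22a25 overlaps both others. Probes of near-identical family copies can share signal, so the values of Slc22a25 are uncertain to that degree.

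**Figure D2:**
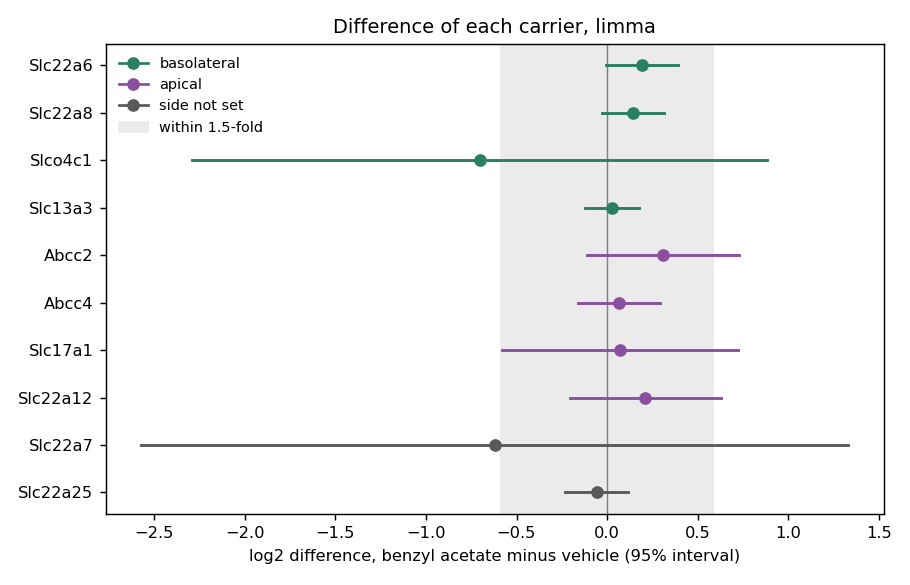
Log2 difference of each carrier (x axis, benzyl acetate minus vehicle), with points for the limma estimate and lines for the 95% interval; colours give the membrane side and the grey band spans 1.5-fold either way. The intervals of 5 carriers lie inside the band, and those of Slco4c1 and Slc22a7 are the widest.

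The intervals say how large a difference these arrays leave room for. For Slc22a6, Slc22a8, Slc13a3, Abcc4 and Slc22a25 the 95% interval lay inside 1.5-fold either way, as it did for 73.9% of all genes. For 8 of the 10 carriers it lay inside 2-fold either way, against 91.5% of all genes. The exceptions were Slco4c1, with an interval from 0.205-fold to 1.85-fold, and Slc22a7, with one from 0.168-fold to 2.52-fold. A p that misses the threshold does not show that a level was the same in both groups.

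The spread between animals differed widely among carriers. The residual SD within groups was 0.031 log2 for Slc13a3, 0.059 for Slc22a8, 0.060 for Slc22a25, 0.086 for Slc22a6 and 0.11 for Abcc4, all below the all-gene median of 0.14. It was 0.24 for Slc22a12 and for Abcc2, and 0.39 for Slc17a1. For Slco4c1 it was 0.96, above that of 98.8% of genes, and for Slc22a7 it was 1.19, above that of 99.3%. The spread of the dim Slco4c1 probe depended on background handling. With normexp background correction (offset 50) the residual SD was 0.40 for Slco4c1, 0.40 for Slc17a1 and 0.71 for Slc22a7. The difference of Slco4c1 was then -0.29.

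Slc22a7 and the brighter probe of Slco4c1 shared an order across animals with Slc7a13, Ggt1 and Aqp1 of the 14 proximal tubule markers. The other markers of that list did not give it. In each group replicate 3 was low, and vehicle replicates 1 and 2 were the highest of all. Slc7a13, an aspartate and cystine carrier subunit of the last, straight part of the proximal tubule, read 4.62, 4.47 and 2.74 with benzyl acetate, against 5.51, 5.54 and 2.63 with vehicle. It was set beside the members after its values were seen. Vehicle replicate 3 was the lowest animal, below all treated ones. Ggt1, a brush border peptidase of the marker list, read 5.25, 5.26 and 5.06 with benzyl acetate, against 5.73, 5.71 and 5.09 with vehicle, a narrower span in which replicate 3 was again lowest in each group.

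The same order was seen in polypeptide carriers of the Slco1a group, which transport steroid conjugates and other anions. Slco1a1 read 0.36, 0.33 and -1.36 with benzyl acetate, against 1.75, 1.74 and -1.66 with vehicle. Slco1a3 read 1.93, 2.49 and 1.33 with benzyl acetate, against 3.29, 3.97 and 0.68 with vehicle. Slco1a6, named after its values were seen, read -0.72, -0.77 and -3.02 with benzyl acetate, against -0.12, 0.44 and -2.53 with vehicle. For each of these genes both replicate 3 animals lay below the other 4. They are close relatives whose probes may share signal, so they are not independent readings.

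**Figure D3:**
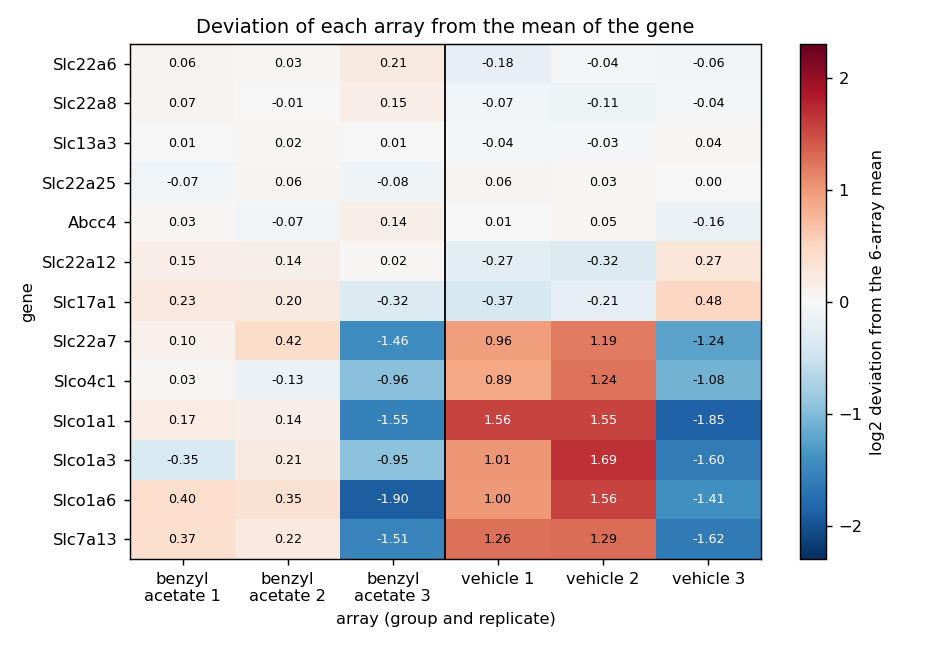
Deviation of each array (x axis) from the gene's mean over the 6 arrays (log2, colour scale and printed value) for 9 carriers (Abcc2 is not drawn) and 4 other genes. Slc22a7, Slco4c1, Slco1a1, Slco1a3, Slco1a6 and Slc7a13 are low on replicate 3 of both groups and highest on vehicle replicates 1 and 2, while Slc22a12 and Slc17a1 are highest on vehicle replicate 3.

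Without replicate 3 of both groups, an alternative chosen after seeing these values, the difference was -0.82 for Slc22a7 (95% interval -1.27 to -0.37; adjusted p = 0.564) and -1.12 for Slco4c1 (-1.56 to -0.67; adjusted p = 0.527), both in limma with 2 animals per group. In the same fit Slc17a1 stood at 0.50 (0.22 to 0.79; adjusted p = 0.569) and Slc22a12 at 0.44 (0.21 to 0.67; adjusted p = 0.540). These 4 of 10 were the carriers whose unadjusted p was under 0.05 there, as it was for 6.97% of all genes (2172) in that fit, and none passed the adjusted threshold. With the log2 signal of Slc7a13 as a covariate, also chosen after seeing the data, the difference was -0.10 for Slc22a7 (-0.52 to 0.32) and -0.28 for Slco4c1 (-0.69 to 0.12). Each interval and count from these 2 fits rests on a choice made with the values in view. The 4 of 10 therefore cannot be weighed against the share of all genes.

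Markers of other cell types were set beside this order. The summed signal of 5 thick ascending limb markers was 325, 318 and 303 with benzyl acetate, against 424, 379 and 239 with vehicle. In that sum vehicle replicate 3 was lowest and vehicle replicates 1 and 2 highest. Umod, by far the brightest of the 5, and Slc12a1 gave this order, and in Cldn16 benzyl acetate replicate 3 was lowest instead. Egf read 5.40, 5.16 and 5.25 and Kcnj1 1.00, 0.75 and 0.82 with vehicle. For both, vehicle replicate 3 lay above vehicle replicate 2 and above every treated animal. T cell markers, 3 of 5 tested, summed to 1.09, 0.87 and 1.01 with benzyl acetate, against 1.27, 1.06 and 2.88 with vehicle, with vehicle replicate 3 alone far above the rest. Proximal tubule markers, 14 of 14 tested, summed to 2406, 2340 and 2532 with benzyl acetate, against 2317, 2336 and 2355 with vehicle, and replicate 3 was not low there. The part of tissue composition in the values of Slc22a7, Slco4c1, Slc22a12 and Slc17a1 was not tested.

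Likeness to other genes was measured as the root mean square distance between centred log2 values over the 6 arrays, among 11934 named genes well above background on every array. The genes nearest to Slc22a7 were Abcc8, a potassium channel subunit (0.18), and Gclc, the catalytic subunit for glutathione synthesis (0.22). Slc7a13 was the 4th nearest gene (0.24), Slco1a6 the 7th (0.28) and Slco4c1 the 12th (0.31). Slc7a13 and Slco1a6 were picked after their values were seen, so their ranks are not separate evidence of likeness. The nearest to Slco4c1 were Aspg, an asparaginase (0.12), and Tnfrsf11b, the decoy receptor osteoprotegerin (0.14), with Slc22a7 the 20th nearest. Gclc itself read 5.55, 5.46 and 4.32 with benzyl acetate, against 6.40, 6.64 and 4.07 with vehicle, and Aspg read 2.00, 1.72 and 1.25 with benzyl acetate, against 2.98, 3.29 and 0.86 with vehicle. Both were lowest in vehicle replicate 3.

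For Slc17a1 the nearest genes were Slc6a20a, an imino acid carrier (0.077), and Cdkn1b, a cell cycle inhibitor (0.10), and Slc22a12 was its 56th nearest (0.18). For Slc22a12 they were Hoxa2 (0.040) and Mcu, the mitochondrial calcium uniporter (0.065). For the 5 steadiest carriers the nearest genes lay at distances of at most 0.027. These were Atp23 (0.025) and Rfxank (0.027) for Slc22a6, Klhl36 (0.015) and Dxo (0.016) for Slc22a8, Nup85 (0.011) and Arpc5l (0.012) for Slc13a3, Npr3 and Pias3 (0.023 each) for Abcc4, and Psme3ip1 (0.017) and Tomm70 (0.021) for Slc22a25. For Abcc2 they were Prr9 (0.064) and Bpifa1 (0.068). A gene of small spread lies at a small distance from any other steady gene, so these distances do not rank likeness between carriers. The root mean square of a carrier about its own mean was 0.028 for Slc13a3 and 0.12 for Slc22a6. It was 0.86 for Slco4c1 and 1.02 for Slc22a7.

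Basolateral uptake and apical carriers were next set side by side within each animal. As multiples of the array's 75th percentile, the group means were 400 with benzyl acetate and 393 with vehicle for Slc13a3, 333 and 291 for Slc22a6, and 284 and 257 for Slc22a8. Slco4c1 stood apart from the other basolateral carriers at 0.031 with benzyl acetate and 0.050 with vehicle. Among apical carriers the multiples were 22.4 with benzyl acetate and 19.3 with vehicle for Slc22a12, 4.77 and 4.56 for Abcc4, 3.99 and 3.22 for Abcc2, and 2.80 and 2.67 for Slc17a1. Slc22a25 stood at 11.5 with benzyl acetate and 11.9 with vehicle, and Slc22a7 at 0.103 and 0.159.

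Probe brightness limits how these signals can be read. Probes of 1 gene differed 15.7-fold in signal for Slc22a6, 15.1-fold for Slc22a8, 14.8-fold for Abcc4, 3.27-fold for Slc22a12 and 3.08-fold for Slco4c1. The order of signals is therefore an order of probes, neither per transcript length nor per copy, and no difference in abundance between carriers was tested. The ratio of uptake to apical signal within 1 animal can be followed between animals, because the same probes enter each time.

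The mean log2 signal of the 4 basolateral carriers minus that of the 4 apical carriers was 2.45, 2.53 and 2.48 with benzyl acetate, against 3.02, 2.97 and 2.21 with vehicle. The mean was 2.49 ± 0.041 with benzyl acetate and 2.73 ± 0.46 with vehicle (SD, n = 3 each), and the treated animals lay inside the vehicle range. Slco4c1 carried much of that vehicle spread. Without it the ratio was 5.70, 5.81 and 6.0 with benzyl acetate, against 6.02, 5.89 and 5.72 with vehicle. The difference between groups was then -0.041, against SDs of 0.15 in each group. The leaving out of Slco4c1 was chosen after its spread was seen.

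**Figure D4:**
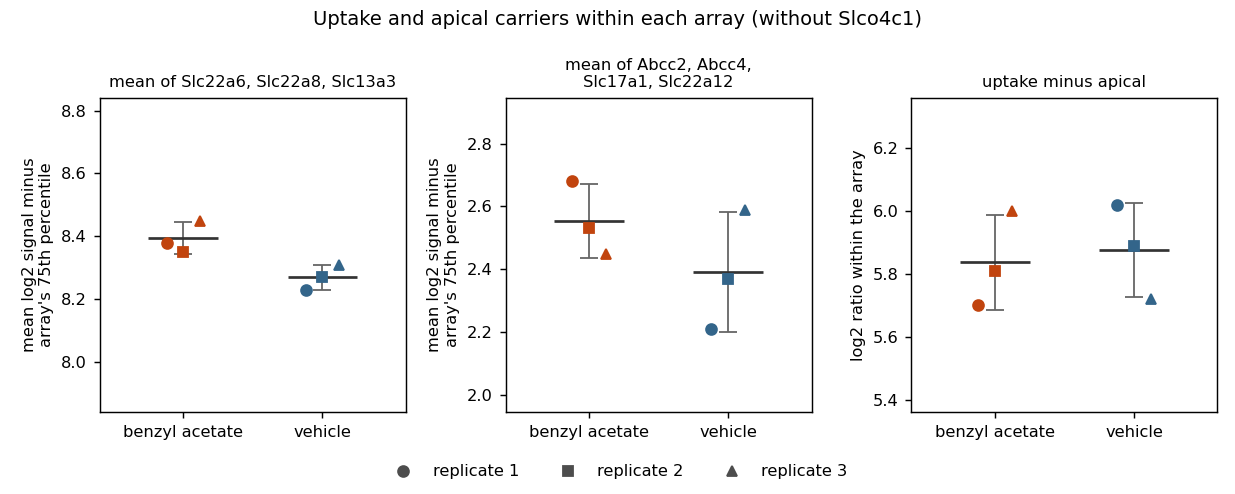
Mean log2 signal of the basolateral carriers Slc22a6, Slc22a8 and Slc13a3 (left), of the 4 apical carriers (middle), and their difference within each array (right), by group; symbols give the replicate number, lines the mean and bars the SD (n = 3). The uptake-minus-apical values run from 5.70 to 6.0 with benzyl acetate and from 5.72 to 6.02 with vehicle.

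The wider system of renal organic anion handling was described with a list of 50 gene names, of which 48 are rat symbols, 44 had a probe and 43 were tested. None passed the adjusted test in limma or had an unadjusted p under 0.05. The difference was above 0 for 23 and below 0 for 20, with a median of 0.010. Groups did not overlap for 2 genes in the higher direction and 1 in the lower, beside 7.51% and 5.31% of all genes.

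Carriers of dicarboxylates, monocarboxylates and sulfate are taken first. Slc5a12, a sodium-coupled lactate carrier of the brush border, was 2.13, 2.18 and 2.52 with benzyl acetate, against 1.96, 2.07 and 2.12 with vehicle. Its groups touched without overlap, and the difference was 0.23 (95% interval -0.072 to 0.53; adjusted p = 0.780 in limma). Slc13a2, the apical citrate carrier, differed by 0.045 (-0.18 to 0.27), and Slc13a1, the apical sulfate carrier, by 0.17 (-0.32 to 0.66). Of the 6 carriers tested in this role, 3 lay above 0 and 3 below.

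Among other carriers of the SLC22 and SLC17 families, differences were small beside their intervals. Slc22a23, an orphan family member, differed by 0.13 (-0.18 to 0.44), and Slc22a18 by -0.089 (-0.28 to 0.10). Without benzyl acetate replicate 1 the Slc22a23 interval was 0.078 to 0.45 (adjusted p = 0.650 in limma). In that fit 2277 of all genes had an unadjusted p under 0.05. Slc17a3, a urate and anion exit carrier encoded beside Slc17a1 on chromosome 17, differed by 0.030 (-0.19 to 0.25), and Slc17a4, its neighbour on the other side, by 0.087 (-0.38 to 0.55). None of the 8 genes tested in these families passed the test in limma.

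Slco2b1, a polypeptide carrier of steroid sulfates, had the lowest unadjusted p of the list. It read -1.97, -2.20 and -2.05 with benzyl acetate, against -1.99, -1.76 and -1.62 with vehicle. The groups overlapped at benzyl acetate replicate 1 and vehicle replicate 1. The difference was -0.28 (95% interval -0.58 to 0.0084; adjusted p = 0.738 in limma). The interval lay below 0 with normexp, quantile normalization, median scaling, cyclic loess, array weights, the slide block and Slc7a13 as a covariate. It was farthest from 0 with the slide block (-0.65 to -0.12), and adjusted p ran from 0.666 to 0.774 in limma. In those fits 1838 to 2292 of all genes had an unadjusted p under 0.05. The lowest-signal probe gave -0.16 (-0.56 to 0.24). In the same family Slco1a1 differed by -0.83 (-3.39 to 1.72) and Slco1a3 by -0.73 (-2.86 to 1.40). Without vehicle replicate 3 these were -1.97 (-3.44 to -0.49) and -1.71 (-2.73 to -0.69). Slco1a1 was -0.26 without vehicle replicate 1 and Slco1a3 -0.066 without vehicle replicate 2. Without replicate 3 of both groups, chosen with the values in view, Slco1a1 was -1.40 (-1.63 to -1.17, adjusted p = 0.354 in limma). Slco1a3 was then -1.42 (-2.33 to -0.51, adjusted p = 0.617 in limma). In these 2 fits 2348 and 2172 of all genes had an unadjusted p under 0.05.

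Exporters and urate genes stayed within narrow intervals on their brightest probes. Abcg2, the apical urate and drug exporter, differed by 0.016 (-0.25 to 0.28), and Abcc6 by -0.10 (-0.37 to 0.16). The intervals of all 6 exporters tested lay inside 1.5-fold either way. Slc2a9, a voltage-driven urate carrier, was 2.01, 2.06 and 2.11 with benzyl acetate, against 2.40, 2.12 and 2.17 with vehicle. This was the 1 gene of the list with separate groups in the lower direction, and the difference was -0.17 (-0.40 to 0.061; adjusted p = 0.787 in limma). Without vehicle replicate 1 it was -0.085. Xdh, the enzyme that makes urate, differed by -0.078 (-0.26 to 0.11). Intervals were wider with the lowest-signal probe of each gene. Slc2a9 then stood at -0.32 (-0.62 to -0.022; adjusted p = 0.723 in limma) and Xdh at -0.040 (-0.59 to 0.51). In that fit 2124 of all genes had an unadjusted p under 0.05.

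Sulfate and bile acid carriers gave differences below 0 for all 3 genes tested, with intervals that held 0 in the main fit. They were -0.22 for Slc10a2, the sodium-coupled bile acid carrier (-0.57 to 0.12), -0.042 for Slc26a1, a basolateral sulfate exchanger (-0.48 to 0.40), and -0.044 for Slc51a, a subunit of the basolateral bile acid exporter (-0.66 to 0.58). With normexp the Slc10a2 interval was -0.52 to -0.047 (adjusted p = 0.666 in limma). With Slc7a13 as a covariate it was -0.54 to -0.061 (adjusted p = 0.716 in limma). In those fits 2292 and 2081 of all genes had an unadjusted p under 0.05.

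The scaffolds that anchor apical carriers, the sodium pump and the regulators of the system completed the list. Pdzk1, the scaffold that binds several apical anion carriers, was 6.39, 6.48 and 6.51 with benzyl acetate, against 6.42, 6.47 and 6.41 with vehicle, a difference of 0.029 (-0.13 to 0.19). Nherf2 was -0.69, -0.68 and -0.68 with benzyl acetate, against -0.78, -0.93 and -0.75 with vehicle, with separate groups and a difference of 0.14 (-0.042 to 0.32; adjusted p = 0.778 in limma). Nherf4 differed by 0.088 (-0.17 to 0.35).

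Of the sodium pump, the regulator Fxyd2 differed by 0.073 (-0.096 to 0.24) and the beta subunit gene Atp1b1 by 0.076 (-0.55 to 0.70). The transcription factor Hnf4a, a known regulator of proximal tubule carriers, differed by 0.016 (-0.30 to 0.33). The signs of several of these small differences turned under other settings.

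**Figure D5:**
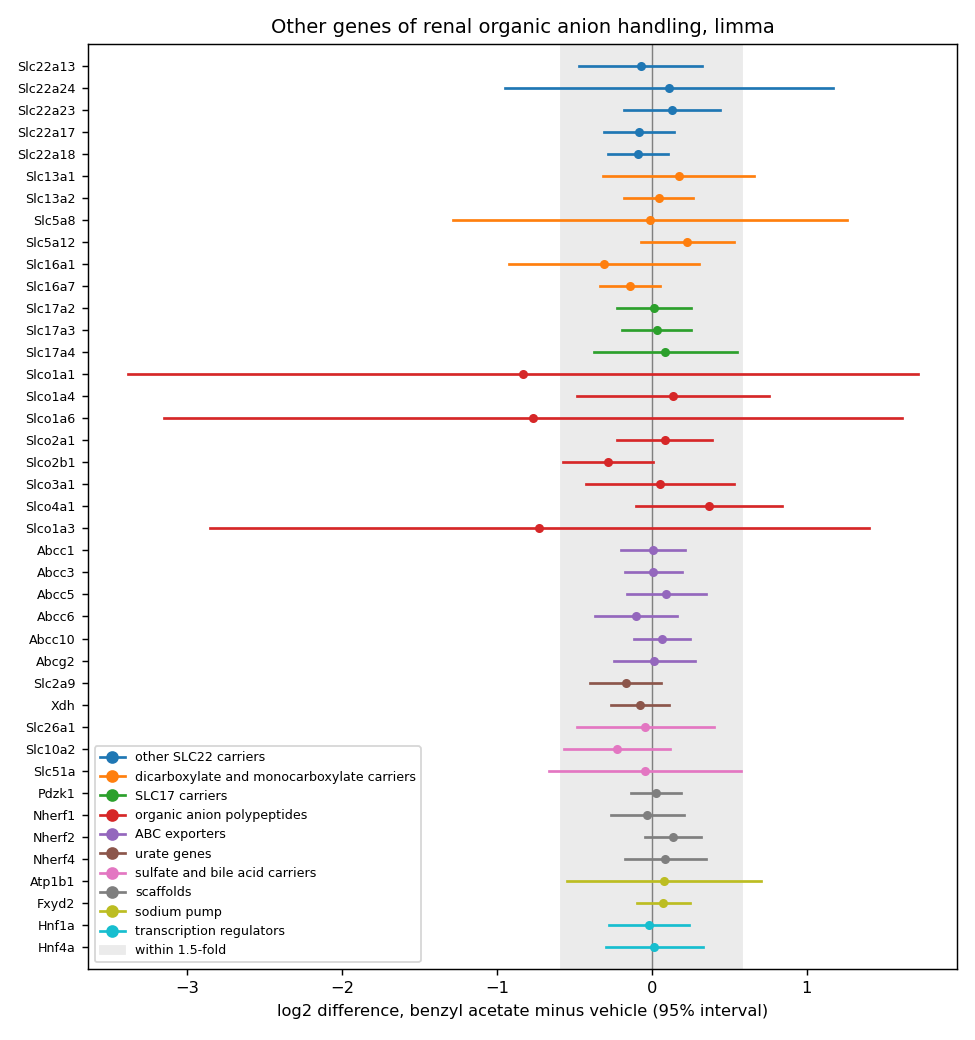
Log2 difference (x axis, benzyl acetate minus vehicle) of 41 of the 43 tested genes of organic anion handling, with points for the limma estimate and lines for the 95% interval, coloured by role; the grey band spans 1.5-fold either way. The intervals of 30 genes lie inside the band, and Slco1a1, Slco1a6 and Slco1a3 have the widest.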

How the data were processed

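Renal cortex RNA of 6 rats, described as biological replicates, was hybridised to 1-colour Agilent arrays, per the labels. The scanner tables hold background-subtracted intensity on a linear scale, as deposited, made with Agilent Feature Extraction 10.7 according to the submitters' processing notes. Its flags, 0 or 1, mark spots that were well above background, outlying or saturated (none was), per the file headers. In the deposited value table each column was that intensity over 1 factor per array, linear and uncentred, with medians of 0.1148, 0.1118 and 0.1125 for benzyl acetate and 0.1102, 0.1110 and 0.1110 for vehicle.

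The deposited intensity was taken to log2 and each array's 75th percentile (61537 probes, controls left out) was subtracted, which hides any shift common to all genes. Outlier spots were left out. A probe was tested if every array of 1 or both groups had it well above background, and the brightest probe stood for a gene. RefSeq accessions (GRCr8) named 28206 probes.

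Limma 3.58.1 in R 4.3.3 (lmFit, eBayes) used group only. In simulated data of 31165 genes with 200 changed, it recovered 27.5% of genes changed 1.5-fold, 57.9% changed 2-fold and 85.8% changed 4-fold. The simulated noise was independent between genes, with no slide effect and no deviation shared by genes of an animal. These rates are averages over genes, so they do not apply to genes of wide spread such as Slco4c1 and Slc22a7. The number of arrays limits the precision. Vehicle replicate 1 was on slide 1, all others on slide 2. Across 31165 genes the deviations of same-numbered arrays gave r = -0.11, 0.0075 and 0.00095. Pairs of other numbers gave -0.11 to 0.12. These values cover all genes together, and single genes such as Slc22a7 and Slco4c1 were low on replicate 3 of both groups. Of the wider list, Slc22a9 and Slc22a19 are not current rat symbols, no probe matched for Slc22a20, Slc16a9, Slc51b and Hnf4g, and Uox was too dim to test.

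The members and gene lists were chosen with earlier results of these data known. Named genes were all members, the 2 brightest and the 1 of lowest p in each role of the wider list, and the 2 genes nearest to each member. Results of 2 genes that this names are not reported here. Alternatives covered replicate or slide as a block, background correction (normexp, offset 50, on median spot signal), scaling, filters, probe choice, outlier spots, prior, array weights, the value table and leaving out each animal.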

Additional observations from a re-analysis of the deposited data

How the results depend on the processing

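None of the 10 carriers and none of the wider list passed the adjusted threshold under any of 22 alternatives, and the lowest adjusted p of a carrier was 0.399, with no filter on dim probes. Over all genes 2 passed, both lower, with normexp and 2 without benzyl acetate replicate 1, so leaving out 1 animal gave 0 to 2. The scaling moved the split of genes with an unadjusted p under 0.05, which was 1190 higher and 910 lower as reported, 828 and 1276 with median scaling, 1555 and 737 with normexp, 1022 and 1053 with quantile normalization, and 5497 and 1081 with no filter. The medians of all genes stayed within 0.1 of 0. With the replicate number as a block 0 genes passed over all genes, carriers and the list. The interval of Slc22a7 narrowed to -1.07 to -0.17 (adjusted p = 0.718), where 2072 of all genes had an unadjusted p under 0.05. The slide block equals leaving out vehicle replicate 1, so the slide and that animal cannot be told apart. Uptake minus apical signal differed by -0.51 to -0.10 between groups when 1 animal was left out and by -0.041 without Slco4c1.

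The sign held in every alternative for 7 carriers. Leaving out 1 animal gave -1.42 to -0.26 for Slco4c1, -1.39 to -0.047 for Slc22a7, 0.14 to 0.23 for Slc22a6, 0.11 to 0.18 for Slc22a8, 0.17 to 0.42 for Abcc2, 0.10 to 0.40 for Slc22a12, -0.10 to -0.033 for Slc22a25, and 0.0013 to 0.12 for Abcc4 and 0.012 to 0.051 for Slc13a3, whose signs turned in other settings. Of the wider list, it gave -1.97 to -0.26 for Slco1a1, -1.71 to -0.066 for Slco1a3, -0.39 to -0.20 for Slco2b1, 0.052 to 0.27 for Slc22a23, -0.13 to -0.041 for Slc22a18, 0.11 to 0.30 for Slc5a12, -0.18 to -0.030 for Abcc6, -0.22 to -0.085 for Slc2a9, -0.12 to -0.046 for Xdh, 0.082 to 0.17 for Nherf2, 0.017 to 0.18 for Nherf4 and 0.042 to 0.10 for Fxyd2. Without vehicle replicate 3 Slco4c1 stood at -1.42 and Slc22a7 at -1.39, and without benzyl acetate replicate 3 Slc22a7 stood at -0.047.

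The other signs turned as follows, and the cause was not tested. Slc13a3 fell to -0.030 with quantile normalization, -0.0028 with median scaling and -0.0096 with cyclic loess. Without replicate 3 of both groups Abcc4 was -0.051, Pdzk1 -0.0059 and Slc26a1 0.20. With the slide block Slc17a1 was -0.098, Slc13a2 -0.012, Slc17a3 -0.0037, Slc17a4 -0.065, Abcg2 -0.037 and Atp1b1 -0.15. With median scaling Abcg2 was -0.013, Pdzk1 -0.00044 and Hnf4a -0.013, and with normexp Pdzk1 was -0.044 and Hnf4a -0.069. With the lowest-signal probe Slc13a2 was -0.0096 and Slc10a2 0.074. With Slc7a13 as a covariate Abcg2 was -0.029 and Hnf4a -0.043. Leaving out 1 animal gave -0.098 to 0.33 for Slc17a1, -0.015 to 0.31 for Slc13a1, -0.012 to 0.10 for Slc13a2, -0.029 to 0.091 for Slc17a3, -0.065 to 0.22 for Slc17a4, -0.037 to 0.12 for Abcg2, -0.19 to 0.083 for Slc26a1, -0.29 to 0.12 for Slc51a, -0.15 to 0.27 for Atp1b1 and -0.11 to 0.12 for Hnf4a.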
